A study of Mus musculus with 14 samples.

Results

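The genes described here encode 6 proteins that bind or edit foreign and endogenous nucleic acids in the cytosol: *Ddx58*, *Ifih1*, *Dhx58*, *Zbp1*, *Eif2ak2* and *Adar*. They were picked by gene name, with earlier results of these data known, from 27962 gene names on the array. In GRCm38.p6 they lie at chr4:40203777-40239825 (*Ddx58*), chr2:62595618-62646255 (*Ifih1*), chr11:100694884-100704271 (*Dhx58*), chr2:173206612-173218959 (*Zbp1*), chr17:78850504-78882572 (*Eif2ak2*) and chr3:89714469-89753455 (*Adar*). Of the 41174 probes on the array that are not controls, 10 carried the array name of a member, and *Dhx58*, which has no probe under its own name, was found through its RefSeq accession under the older name *D11Lgp2e*. With its probes there were 12, namely 4 for *Ddx58*, 2 each for *Ifih1*, *Dhx58* and *Adar*, and 1 each for *Zbp1* and *Eif2ak2*. Of these, 10 were bright enough to be tested, and all 6 genes had a tested probe.

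All cells were *p65*(-/-) mouse embryonic fibroblasts, which lack the p65 (RelA) subunit of NF-κB, and had been infected with a lentiviral vector and kept as drug-selected pools, so each line is 1 pool and not a set of clones. The vector carried wild type p65, the triple lysine to arginine mutant KTR (K310/314/315R), the double mutant K314/315R, or nothing (pTV). After overnight starvation, cells of each line received 30 ng/ml mouse TNFα for 3 h, and a further set of wild type cultures was taken at 0 h, without TNFα. K314/315R had 2 arrays and each of the other 4 groups had 3, which gave 14 arrays of total RNA. The comparisons ask which transcripts need p65, which differ when its acetylated lysines are replaced, and which respond to TNFα.

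*Ddx58* encodes RIG-I and *Ifih1* encodes MDA5, RNA helicases that bind viral double-stranded RNA and signal through the adaptor MAVS to the kinases TBK1 and IKKε, to the factors IRF3 and IRF7 and to NF-κB. *Dhx58* encodes LGP2, a related helicase without the signalling domains. Interferon made in this way acts on the cell through a complex that holds STAT2 and IRF9 and induces these same sensor genes in many cell types, fibroblasts among them.

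Stretches around short motifs are shown for the members whose promoters were at hand, because these genes differed together between the lines. The RefSeq promoter table (GRCm38.p6, 250 bases before to 50 after each start) had 6 entries for 4 members, *Ddx58*, *Ifih1*, *Eif2ak2* and *Adar* (3 starts), and no entry was used for *Dhx58* and *Zbp1*. The letters GAAANNGAAA, the core of the interferon-stimulated response element, and GAAANGAAA, a spacing added after these sequences had been read, were searched on both strands, where matches of the 2 can overlap. The motif is in capitals, and each line reads 5′ to 3′ along the gene's own strand.
*Ddx58*, chr4:40239867-40239895, minus strand, 60 bases before the start: tctaggttcaGAAACGAAActggatcccc
*Ddx58*, chr4:40239804-40239833, minus strand, from base 3 after the start, where the match lies on the other strand: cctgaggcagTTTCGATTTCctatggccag
*Ifih1*, chr2:62646206-62646233, minus strand, from base 33 after the start: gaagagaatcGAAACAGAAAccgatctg
*Eif2ak2*, chr17:78882535-78882564, minus strand, from base 19 after the start: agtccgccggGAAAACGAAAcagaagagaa
*Adar*, the third start, chr3:89730736-89730764, plus strand, from base 29 after the start: ccttttcaagGAAACGAAAgtgaactctg
GAAANNGAAA was thus found for *Ddx58*, *Ifih1* and *Eif2ak2*, and for *Adar* only the spacing added later, at 1 of its 3 starts. Of all 32851 promoters in the table, 3.44% held GAAANNGAAA and 3.17% held GAAANGAAA. The κB consensus, present in 8.46% of promoters, was in none of these 6 windows, which says only that its letters are not there. A match is a description of the sequence and not a bound site.

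There were 4 slides. KTR, pTV and both wild type groups had 1 array apiece on slides 1, 2 and 3, while slide 4 carried the K314/315R arrays alone, read with a later build of the extraction software, so that slide, software and K314/315R cannot be told apart. The 75th percentile of the signal was 967 to 1442 per array, and 49.9% to 57.7% of spots were well above background. All levels below are log2 signals relative to that percentile. *Rela*, the gene of p65, was at 1.52 to 1.54 in wild type at 3 h and 1.00 to 1.34 in pTV at its brighter probe, a log2 difference of 0.35 (limma, adjusted p = 0.213). Its level there was 0.79 to 1.54 in KTR, 1.54 to 1.87 in K314/315R and 0.97 to 1.04 in wild type at 0 h. The dimmer probe differed by 0.61 (adjusted p = 0.0218). Which part of the disrupted or introduced gene these probes read was not stated, so they do not check the labels. Of 8 fibroblast markers, 7 were well above background on all arrays, and their summed linear signal was 1087 to 1242 times the percentile in wild type at 3 h and 1042 to 1242 in pTV. Within that list limma called *Pdgfrb* higher (log2 1.99) and *Thy1* lower (−1.19) in wild type than in pTV, and their part in the results was not tested. Of 6 leukocyte markers, *Ptprc*, *Emr1* and *Itgam* were well above background on no array, while *Cd3e* was on 14, *Csf1r* on 13 and *Cd79a* on 1. The summed signal of this list was 0.279 to 0.293 in wild type at 3 h and 0.285 to 0.681 in pTV. Of 4 epithelial markers 2, and of 3 endothelial markers all 3, were above background on no array. The other epithelial markers, *Krt5* and *Krt14*, were well above background on 13 and 12 arrays.

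The 3 RIG-I-like receptor genes were each between 4 and 10 times as high in cells with wild type p65 as in cells without p65. *Dhx58* showed the widest gap of the 3. Its log2 level was 0.22, 0.37 and −0.38 on the wild type arrays at 3 h (replicates 1 to 3), and −3.36, −3.39 and −2.91 on the pTV arrays. No array of the 2 groups came near the other. Wild type exceeded pTV by 3.29 ± 0.25 (SE) on the log2 scale, a 9.77-fold difference (limma, adjusted p = 2.48e-06). In KTR cells the level of *Dhx58* was −0.87, −1.62 and −1.18, and in K314/315R cells −0.23 and −0.47. Unstimulated wild type cells had 0.36, 0.35 and −0.30. The groups thus ran from wild type at 0 h through wild type at 3 h, K314/315R and KTR to pTV, and only the first 3 overlapped with their neighbours.

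*Ifih1* was at 0.37, 0.48 and −0.06 in wild type cells at 3 h and at −2.37, −2.60 and −2.32 in pTV cells. These groups were far apart, with a log2 fold change of 2.69 ± 0.23 (SE), or 6.48-fold (limma, adjusted p = 6.15e-06). The gene was at −0.54, −0.30 and −0.15 in KTR, 0.37 and −0.46 in K314/315R, and 0.07, 0.18 and −0.47 in wild type at 0 h. All groups with p65 overlapped with their neighbours in order of the mean, and every one of their arrays lay above pTV.

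*Ddx58* has 4 tested probes, which is a check of the array and not of the cells. At the brightest, wild type cells at 3 h had 0.96, 0.86 and 0.18, and pTV cells −1.22, −1.87 and −1.52. KTR cells had 0.54, 0.21 and 0.33, K314/315R cells 0.14 and −0.21, and wild type cells at 0 h 0.40, 0.90 and 0.22. Again only the pTV arrays stood far below, and K314/315R lay just under all others that carry p65. The wild type level was 4.61 times that of pTV (log2 2.21 ± 0.24 (SE); limma, adjusted p = 4.15e-05). The other 3 probes gave log2 fold changes of 2.36, 2.55 and 2.93, all called. The dimmest of them was well above background on no pTV array, so its difference is a bound, at least 2.91-fold.

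*Zbp1*, whose protein binds nucleic acids in the Z form and can start cell death through the kinase RIPK3, had the largest difference of the members. Its log2 level was 1.79, 1.31 and 0.70 in wild type cells at 3 h. In pTV cells it was −5.29, −5.44 and −5.23, and no pTV array was well above background. Set against the lowest measurable signal of those arrays, wild type was at least 65.2-fold higher (fitted log2 difference 6.59 ± 0.33 (SE); limma, adjusted p = 6.83e-08). The same bound was at least 54.0-fold for wild type at 0 h, at least 49.7-fold for K314/315R and at least 26.1-fold for KTR, all over pTV. KTR cells had 0.39, −0.22 and −0.34, K314/315R cells 1.12 and 0.63, and unstimulated wild type cells 1.41, 1.29 and 0.29. In order of the mean these were wild type at 3 h, wild type at 0 h, K314/315R, KTR and pTV. K314/315R and KTR did not overlap, and the lowest unstimulated array lay below the highest KTR array.

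**Figure D1:**
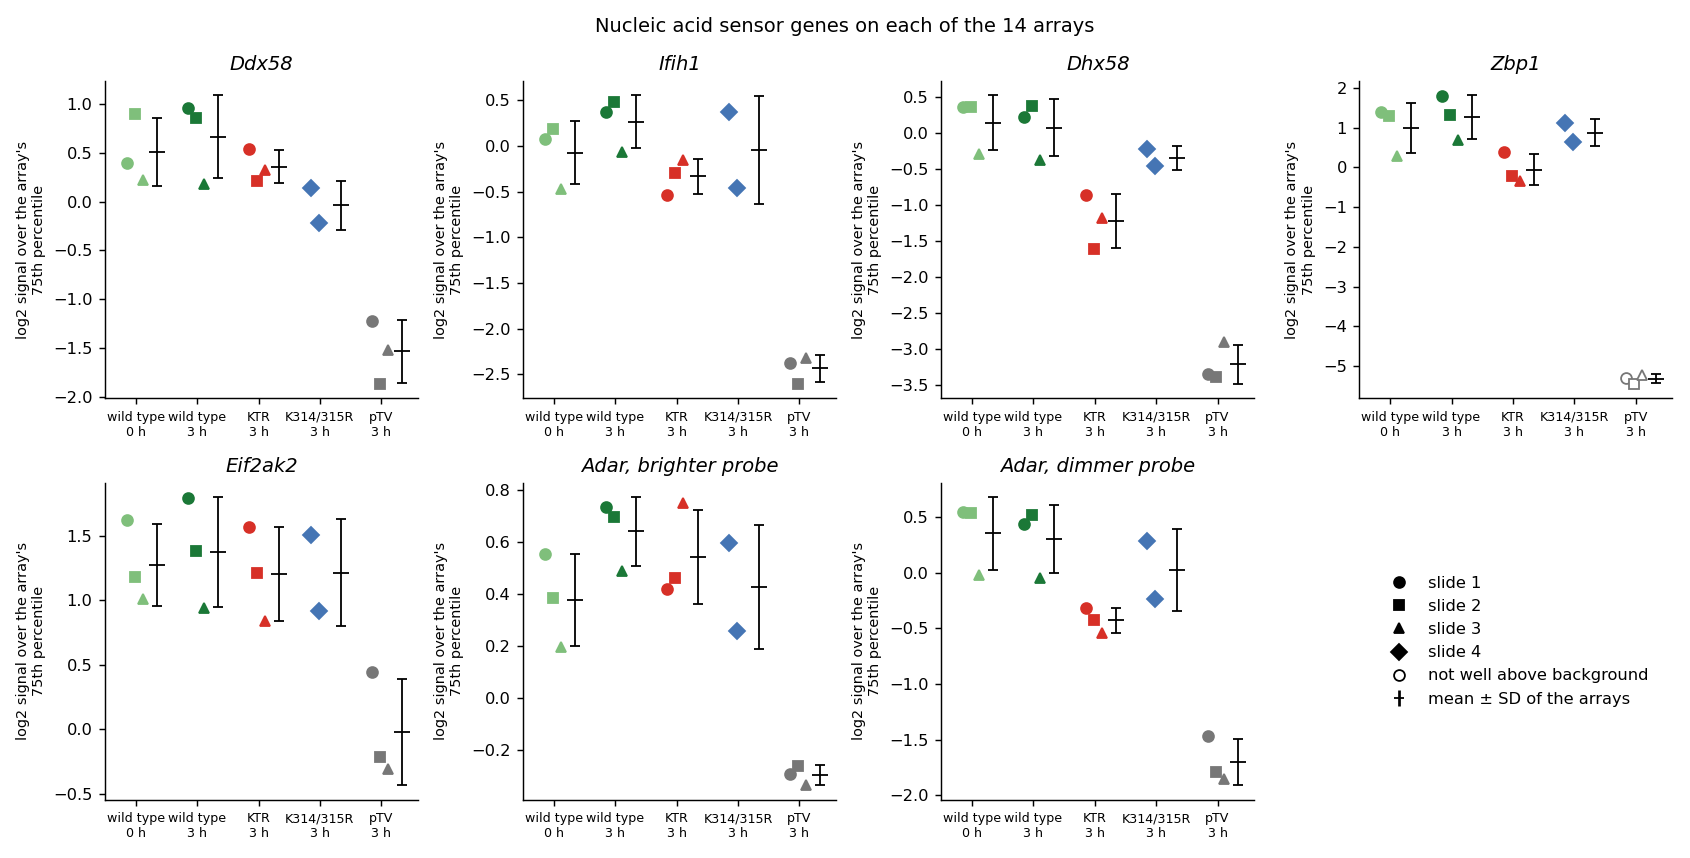
Log2 signal, with the array's 75th percentile at 0, for the brightest probe of every member, and for the dimmer probe of *Adar*, in the 5 groups; each point is 1 array, its shape gives the slide, open points were not well above background, and bars show the mean ± SD. The pTV arrays lie lowest in every panel, and the KTR arrays lie below all wild type arrays of 3 h for *Ifih1*, *Dhx58*, *Zbp1* and the dimmer *Adar* probe.

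The other members act on RNA and on translation. *Eif2ak2* encodes PKR, the kinase that phosphorylates eIF2α when it binds double-stranded RNA and so stops protein synthesis. It was at 1.79, 1.38 and 0.94 in wild type cells at 3 h and at 0.45, −0.21 and −0.31 in pTV cells. KTR cells had 1.57, 1.21 and 0.84, K314/315R cells 1.5 and 0.92, and unstimulated wild type cells 1.62, 1.18 and 1.01. All groups with p65 spanned much the same range, above every pTV array. Wild type exceeded pTV 2.63-fold, with a log2 difference of 1.40 ± 0.28 (SE) (limma, adjusted p = 0.00508). With the normexp background correction that call was lost (log2 1.1, adjusted p = 0.0611), the highest adjusted p over the alternatives.

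*Adar* encodes ADAR1, which turns adenosine into inosine in double-stranded RNA. Its brighter probe was at 0.73, 0.70 and 0.49 in wild type cells at 3 h and at −0.29, −0.26 and −0.33 in pTV. The groups did not overlap, but the difference of 1.91-fold (log2 0.94 ± 0.13 (SE); limma, adjusted p = 3.27e-04) missed the 2-fold limit, and it passed without wild type 3 h replicate 3 (log2 1.01). Its dimmer probe was at 0.44, 0.52 and −0.05 in wild type against −1.47, −1.79 and −1.85 in pTV. That is 4.03-fold (log2 2.01 ± 0.20 (SE); limma, adjusted p = 2.28e-05). The probes of *Adar* therefore disagree on the call and not on the direction. KTR cells had 0.42, 0.46 and 0.75 at the brighter probe and −0.32, −0.43 and −0.54 at the dimmer. K314/315R cells had 0.59 and 0.26, and 0.29 and −0.24. In wild type at 0 h the levels were 0.55, 0.38 and 0.20, and 0.55, 0.54 and −0.02.

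Counted together, 9 of the 10 tested member probes passed for wild type over pTV, at over 2-fold and an adjusted p under 0.05, which held for 3.59% of all 22172 tested probes. None was lower. Within slides the differences had the same direction at every probe, with the smallest, 0.82, at the brighter *Adar* probe on slide 3. The median log2 fold change of the 10 was 2.45, against −0.03 over all tested probes. Every wild type array lay above every pTV array for all 10, as for 16.1% of tested probes. *Zbp1* and the dimmest *Ddx58* probe passed the filter on dim probes through the groups with p65 alone, and among the 8 measured above background on each of the 14 arrays 7 were called. With the tests limited to such probes, 466 of all 18524 were called higher. In RNA of whole cultures, fewer cells with a transcript and less transcript per cell cannot be told apart.

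The same 9 probes were called higher over pTV in KTR (3.32% of all tested probes), in K314/315R (4.18%) and in unstimulated wild type cells (3.71%). These comparisons share the pTV arrays and so are not independent of each other. *Dhx58* was 3.99-fold higher in KTR than in pTV (limma, adjusted p = 1.81e-04), 7.32-fold in K314/315R (adjusted p = 2.40e-05) and 10.3-fold in wild type at 0 h (adjusted p = 2.37e-06). *Ifih1* was 4.29-fold, 5.23-fold and 5.13-fold higher in the same order, and *Ddx58* 3.73-fold, 2.83-fold and 4.13-fold. *Eif2ak2* was 2.34-fold, 2.36-fold and 2.45-fold higher. For K314/315R its call was lost without K314/315R replicate 1 (log2 0.94, adjusted p = 0.119). The brighter *Adar* probe, at 1.79-fold, 1.65-fold and 1.59-fold, stayed under the limit. Under normexp the numbers called were 5 of 10 in KTR and 4 of 10 in K314/315R. Over all 22172 tested probes the number called higher also fell, from 736 to 280 in KTR and from 926 to 333 in K314/315R. In KTR, *Dhx58* (log2 0.84, adjusted p = 0.454) and the dimmer *Adar* probe (0.89, 0.115) lost their calls. In K314/315R, the brightest *Ddx58* probe (1.05, 0.0929) and *Eif2ak2* (1.17, 0.0623) lost theirs. Of the *Ddx58* probes, only the brightest and the next kept their call in KTR, and none did in K314/315R. Wild type over pTV had 7 of 10 under normexp, at smaller log2 values of 1.58 for *Ddx58*, 1.93 for *Ifih1*, 2.11 for *Dhx58* and 3.81 for *Zbp1*, all called. In that comparison 260 of all tested probes were called higher under normexp, against 795 without it.

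**Figure D2:**
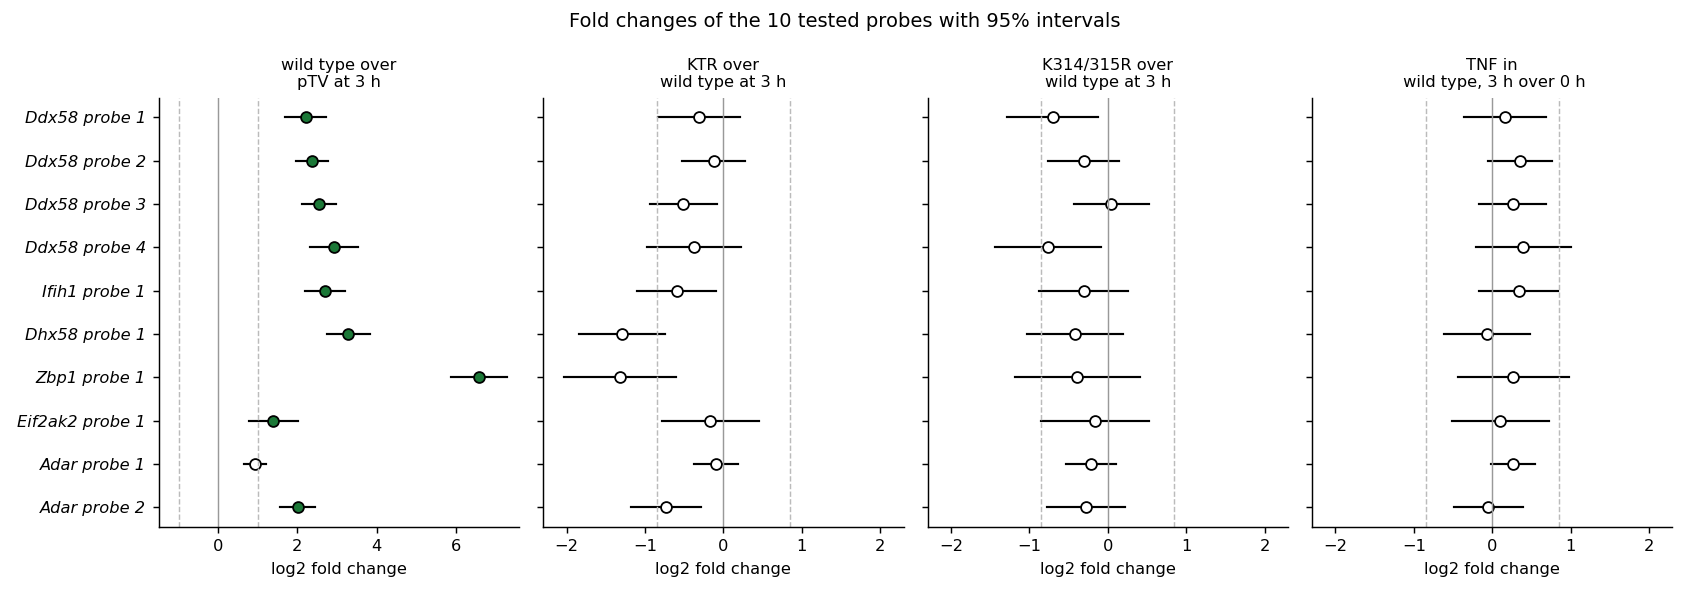
Log2 fold change of each of the 10 tested probes with its 95% interval from limma, in 4 comparisons; filled points passed the limits on fold and adjusted p, open points did not, and dashed lines mark the fold limits. All points but the brighter *Adar* probe are filled for wild type over pTV, where the scale is wider, and none is filled in the other 3 panels, though all 10 lie below 0 for KTR over wild type.

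Between KTR and wild type cells at 3 h, *Zbp1* and *Dhx58* had the largest differences, and limma called 0 of the 10 member probes at a ratio over 1.8 or under its inverse and an adjusted p under 0.05, against 0.167% of all tested probes. At an unadjusted p under 0.05 and the same ratios, 2 were lower, *Zbp1* and *Dhx58* (0.816% of tested probes were lower by that rule). *Zbp1* was at 0.400 times the wild type level, a log2 difference of −1.32 (95% interval −2.04 to −0.61; limma, adjusted p = 0.169). *Dhx58* was at 0.409 times, a difference of −1.29 (−1.84 to −0.74; adjusted p = 0.0698). With the replicate number, which on slides 1 to 3 is also the slide, as a block, both passed (adjusted p = 0.0242 for *Zbp1* and 0.0451 for *Dhx58*), as did 0.28% of tested probes in that direction. With the slide as a random block both passed too (adjusted p = 0.0288 and 0.0229), where 75 of 22172 tested probes were lower, against 31 without a block. Over the alternatives the adjusted p ran from 0.0242 to 0.650 for *Zbp1* and from 0.0229 to 0.650 for *Dhx58*. Without KTR replicate 1, *Dhx58* alone of the members was called (log2 −1.47, adjusted p = 0.0332), where 96 of 22172 tested probes were lower. The study lists *Dhx58* and *Zbp1* as lower in KTR from these same arrays, so their direction here is not independent evidence.

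On each slide the KTR array was below the wild type array for both genes. The differences for *Zbp1* were −1.40, −1.53 and −1.04 on slides 1 to 3, and for *Dhx58* −1.09, −1.99 and −0.80. For *Ifih1* they were −0.91, −0.78 and −0.09. The dimmer *Adar* probe was also lower on all 3 slides, by −0.75, −0.95 and −0.49. In contrast, the brightest *Ddx58* probe was at −0.42, −0.65 and 0.15 and the brighter *Adar* probe at −0.31, −0.24 and 0.26, each with 1 slide in the other direction. *Eif2ak2* differed by −0.23, −0.17 and −0.10, small values of 1 sign that did not pass with the replicate block either (SE 0.083, adjusted p = 0.353). Slide 3, whose wild type array had the lowest level of the 3 for every member, gave the smallest difference for *Zbp1*, *Dhx58*, *Ifih1*, *Eif2ak2* and the dimmer *Adar* probe.

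**Figure D3:**
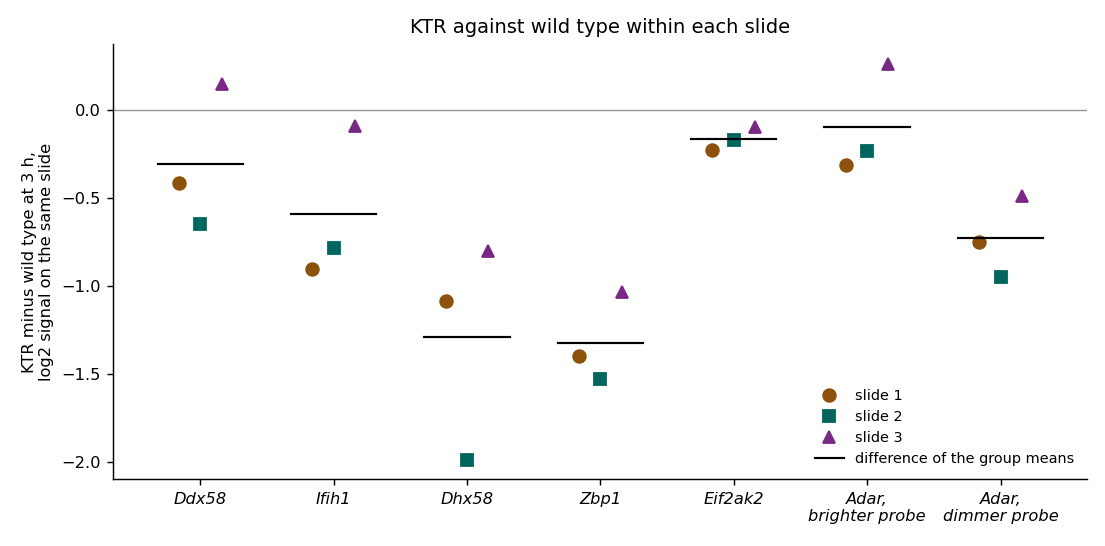
Log2 level in KTR minus that in wild type at 3 h on the same slide (points, 1 per slide) with the difference of the group means (line), for the brightest probe of each member and the dimmer *Adar* probe. *Dhx58* and *Zbp1* lie at −0.80 or lower on every slide, while *Ddx58* and the brighter *Adar* probe cross 0 on slide 3.

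The remaining tested probes were not called in KTR in the fits named above. Without the filter on dim probes the second, dim *Ifih1* probe was called, though it was well above background on no KTR array. In that fit 150 of 41174 probes were lower and 1252 higher, against 31 and 6 of 22172 with the filter. The log2 difference was −0.59 for *Ifih1* (95% interval −1.10 to −0.09), −0.73 for the dimmer *Adar* probe (−1.17 to −0.29), −0.31 for the brightest *Ddx58* probe (−0.83 to 0.21), −0.17 for *Eif2ak2* (−0.79 to 0.45) and −0.10 for the brighter *Adar* probe (−0.38 to 0.19). The other *Ddx58* probes were at −0.13, −0.51 and −0.38. The dimmer *Adar* probe had an adjusted p of 0.0340 with the replicate block and a ratio of 0.603, short of the ratio limit. All 10 probes had a lower mean in KTR, with a median of −0.44 against 0.06 over all tested probes. The KTR arrays all lay below the wild type arrays for 5 probes of 5 genes, all but *Eif2ak2*. That held for 5.25% of all tested probes and for 30.8% of the 795 called higher in wild type over pTV, to which these 5 belong.

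For *Zbp1* and *Dhx58* the estimated difference from wild type was smaller in K314/315R than in KTR, though a difference between the mutants was not shown. The log2 differences were −0.39 (95% interval −1.19 to 0.41) and −0.42 (−1.03 to 0.20). Limma called 0 of the 10 probes at the unadjusted p, where 770 of all 22172 tested probes were called. At the adjusted p it also called 0, where 1.21% of all tested probes were called. That background of 268 probes rested on single arrays, with 18 left without K314/315R replicate 2, 127 without K314/315R replicate 1, 29 without wild type 3 h replicate 2 and 120 without wild type 3 h replicate 1. *Ddx58* had −0.70 (−1.29 to −0.12; limma, adjusted p = 0.195) at its brightest probe, whose K314/315R arrays lay below all wild type arrays. Its other probes were at −0.31, 0.042 and −0.76, so they do not share a direction. The differences were −0.31 for *Ifih1*, −0.16 for *Eif2ak2*, and −0.21 and −0.28 for the probes of *Adar*, with intervals that include 0. With 2 arrays on a slide of their own, these values carry the slide as well.

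Set against each other, KTR was lower than K314/315R by −0.93 (95% interval −1.73 to −0.13) in *Zbp1* and by −0.87 (−1.49 to −0.26) in *Dhx58*, with adjusted p of 0.165 and 0.0959 (limma). Every KTR array lay below both K314/315R arrays for these 2 genes. Limma called 0 of the 10 probes (2.55% of all tested probes) and, at the unadjusted p, these 2, which were lower as were 1.06% of tested probes. The brightest *Ddx58* probe had the opposite sign, 0.40 (−0.19 to 0.98), and its others 0.18, −0.55 and 0.38. Every KTR array lay above both K314/315R arrays at the brightest *Ddx58* probe. Every KTR array lay below both at the *Ddx58* probe with −0.55 and at the dimmer *Adar* probe. How many of all tested probes were split in this way was not counted. The remaining members had values between −0.45 and 0.12. It was therefore not shown that KTR and K314/315R differ in any sensor gene.

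TNFα left no called difference. In wild type cells, limma called 0 of 10 probes between 3 h and 0 h at the adjusted p, where 1.55% of all tested probes were called. At the unadjusted p it also called 0, where 310 of 22172 tested probes were higher and 150 lower. The log2 values were 0.16 (95% interval −0.36 to 0.68) for *Ddx58*, 0.34 (−0.17 to 0.84) for *Ifih1*, −0.07 (−0.62 to 0.48) for *Dhx58*, 0.27 (−0.44 to 0.99) for *Zbp1*, 0.10 (−0.52 to 0.72) for *Eif2ak2* and 0.26 (−0.02 to 0.55) for *Adar*. The 2 groups overlapped at every probe. The interval is widest for *Zbp1*. Unstimulated wild type cells also exceeded pTV cells given TNFα, in the comparison above, which differs in TNFα as well as in p65. No pTV array was taken without TNFα, so a difference between the lines without TNFα was not tested.

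The members varied together. Over the 14 arrays the 15 pairs of members had Pearson correlations of 0.830 to 0.978 at their brightest probes, where the low pTV arrays weigh on each. With the group means taken out they were 0.363 to 0.816, and arrays of 1 slide are not independent. Replicate 3 of wild type was below its group mean for all 6 genes at 3 h, by −0.15 (*Adar*) to −0.57 (*Zbp1*), and at 0 h by −0.18 (*Adar*) to −0.71 (*Zbp1*). For each member the 3 genes whose level followed it most closely over the 14 arrays were taken. For *Zbp1* they were *Oas1a* (0.996), *Isg15* (0.993) and *Mx2* (0.993), and for *Ifih1* they were *Ifit1* (0.993), *Isg15* (0.991) and *Ifit3* (0.990). *Dhx58* had *D14Ertd668e* (now *Phf11d*, 0.987), *Isgf3g* (now *Irf9*, 0.986) and *Ifi44* (0.986). For *Adar* they were *Tor3a* (0.984), *Ube2l6* (0.977) and *Loh11cr2a* (now *Vwa5a*, 0.969). *Ddx58* had the unnamed transcript NAP000727-001 (0.981), *Fbxo39* (0.970) and *Ifit3* (0.969). *Eif2ak2* had *B2m* (0.974), *Nqo2* (0.963) and *Scotin* (now *Shisa5*, 0.962).

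The genes that act next to the sensors were taken from 5 lists, 57 genes in all, of which 53 had a tested probe. In wild type over pTV, limma called 12 of them higher and 0 lower, and at the unadjusted p 13 and 0, the added gene being *Tlr7*. Of all 22172 tested probes, 795 were higher and 323 lower by the first rule, and 820 and 341 at the unadjusted p. With normexp 6 of the 12 lost their call, *Ikbke*, *Irf7*, *Ifnar2*, *Tyk2*, *Tlr3* and *Ddx60*. The interferon receptor and ISGF3 list had 6 of 10. Of the transcription factors, *Stat2* was at a log2 fold change of 1.88 (adjusted p = 1.70e-06), *Irf9* at 2.09 (7.11e-06) and *Irf1*, an activator of interferon genes, at 2.59 (2.10e-08). *Usp18*, an enzyme that removes ISG15 and damps the receptor, was at 5.92. Only 2 of 3 pTV arrays were well above background for *Usp18*, *Irf7* and *Tlr3*, so their fitted values include a dim array. *Ifnar2*, a receptor chain, was at 1.1 and the kinase gene *Tyk2* at 1.06, and *Tyk2* fell under the 2-fold limit without wild type 3 h replicate 1 (log2 0.97). With normexp *Tyk2* was at 0.84, *Ifnar2* at 0.92 (adjusted p = 0.0506) and *Usp18* at 3.69. The list's median was 1.08.

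The route from the RIG-I-like receptors to interferon had 3 of 16 called higher. These were *Irf7* (log2 3.20), *Ikbke*, the gene of IKKε (1.79), and *Trim25*, which ubiquitinates RIG-I (1.58). With normexp *Irf7* was at 1.68 (adjusted p = 0.0775) and *Ikbke* at 1.21 (0.0745), and *Trim25* stayed called. The adaptor gene *Mavs* was at −0.12, *Tbk1* at 0.59 and *Irf3* at −0.11, none of them past the limits. *Ifnb1*, which encodes interferon β, was well above background on no array and was not tested. Of the other sensors, editors and nucleases 3 of 13 were higher, *Ddx60*, a helicase (at least 3.84-fold, since no pTV array was above background), *Tlr3*, an endosomal receptor for double-stranded RNA (1.63), and *Trex1*, a DNA exonuclease (1.36). With normexp *Ddx60* was at 1.06 and *Tlr3* at 0.81 (adjusted p = 1.000 for both). *Adarb1*, a relative of *Adar*, was at −0.33.

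Of 10 partners of PKR and genes of the eIF2α branch none was called, with a median of −0.11; *Prkra*, the activator of PKR, was at 0.16. Of 4 partners of ZBP1 none was called, and *Ripk3* was at 0.032, with a sign that turned without wild type 3 h replicate 1 (−0.015) or pTV replicate 3 (−0.10). *Mlkl*, the executor of this form of cell death, was at 0.99, just under the fold limit.

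Between KTR and wild type, limma called 0 of the 53 genes, and at the unadjusted p 1, *Usp18*, lower (log2 −1.17, adjusted p = 0.528), which the study also lists from these arrays. *Stat2* was at −0.38, *Irf9* at −0.51 and *Irf7* at −0.66. In K314/315R over wild type limma called 1 gene, *Ripk3* (log2 1.07, adjusted p = 0.0172). That call was lost without either K314/315R array (log2 0.90 and 1.23, adjusted p = 0.0808 and 0.0621), without wild type 3 h replicate 2 (1.09, 0.0573) and in 3 other settings, over which the adjusted p reached 0.833. TNFα raised *Tank*, an adaptor of TBK1 (log2 0.95), and *Irf1* (0.87, under the ratio limit without wild type 3 h replicate 1, at 0.79, or without wild type 0 h replicate 2 or 3, at 0.83 and 0.84). With normexp neither was called, at 0.63 for *Tank* and 0.56 for *Irf1* (adjusted p = 0.594 for both).

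**Figure D4:**
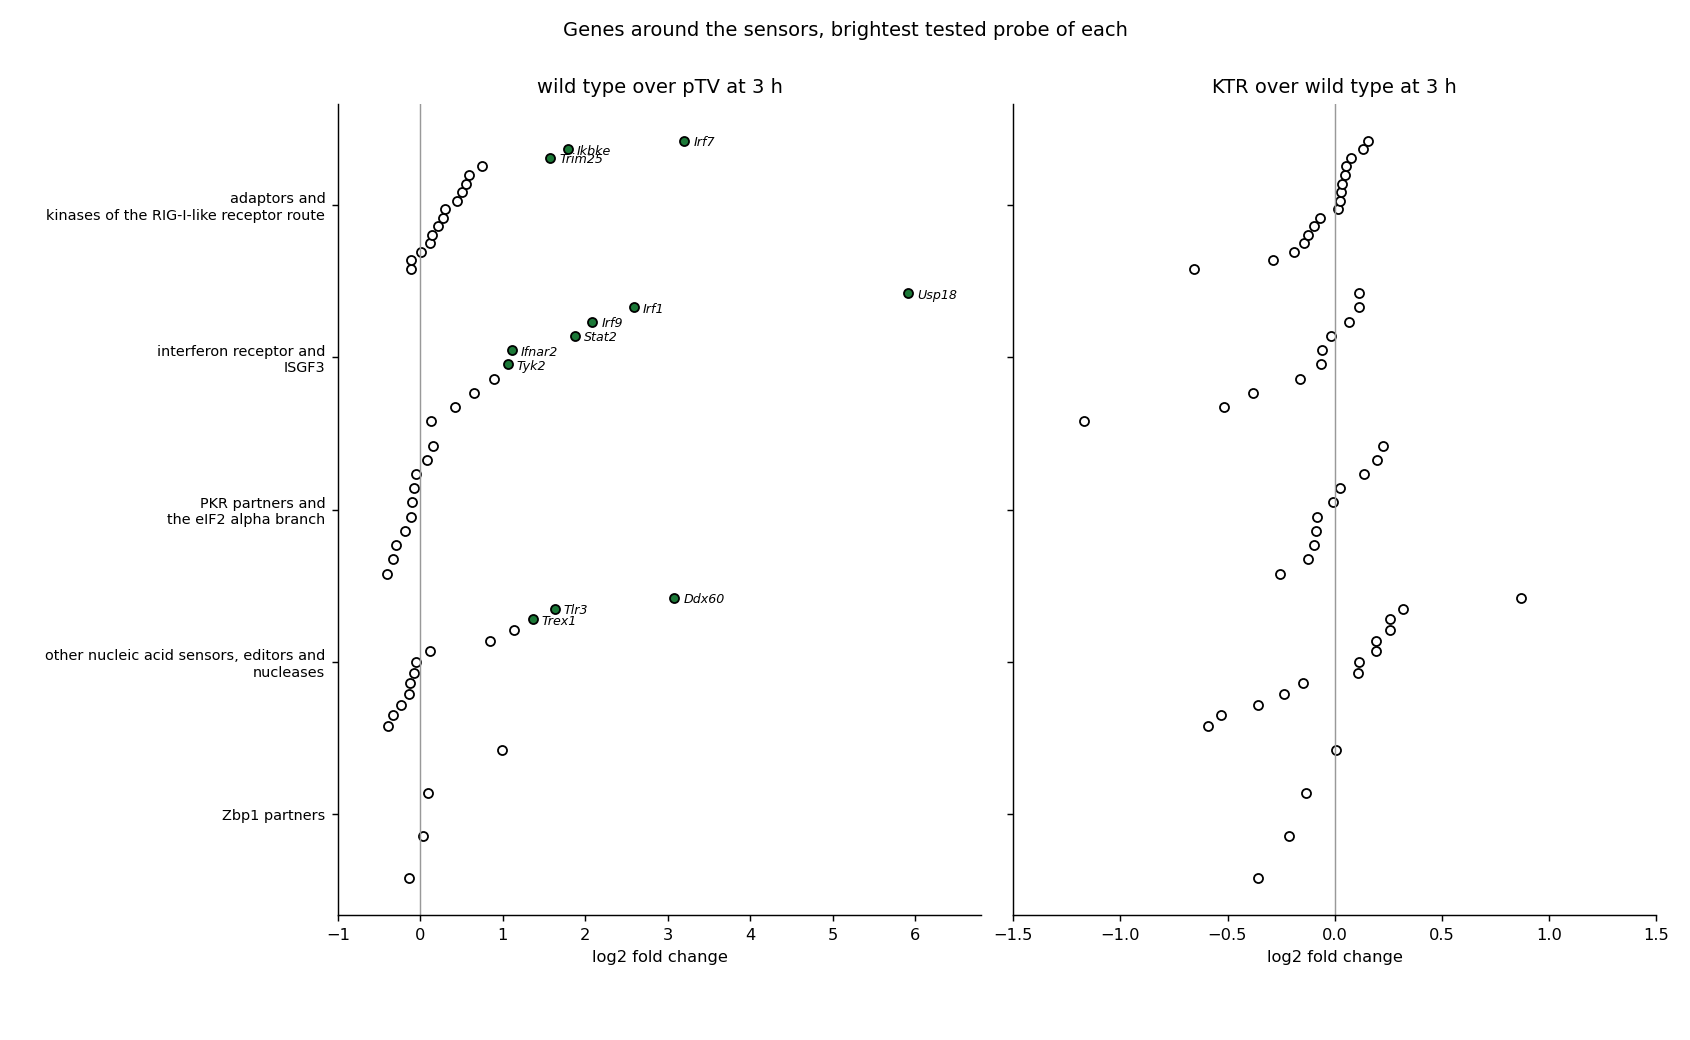
Log2 fold change of the 53 tested genes of the 5 lists at their brightest tested probe, for wild type over pTV (left) and KTR over wild type (right, narrower scale); filled and named points passed the limits on fold and adjusted p. The 12 filled genes on the left belong to 3 of the lists, the *Usp18* point at 5.92 lies farthest out, the *Ddx60* point is a fitted value above its bound, and no gene is filled on the right.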

How the data were processed

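The authors deposited the scanner output of each array (Agilent Feature Extraction, version 9.1 per the labels), in which an intensity per spot was corrected for background but not scaled between arrays, and a table of normalized intensities, which was within 1% of the mean corrected intensity times 1 factor per array (0.837 to 1.20) for 99.6% to 99.8% of probes. Here, outlier spots (1 to 326 per array) were left out, spots of a probe were averaged, and log2 values were set relative to the array's 75th percentile. Testing took the probes that all arrays of some group had well above background, and 5 of these had no value in 1 group. Groups were compared with limma 3.58.1 in R 4.3.3, all 14 arrays in 1 fit, two-sided, with Benjamini-Hochberg adjustment over 22172 probes, after tests on simulated data. Other columns of the scanner output, such as the background flags, were deposited as given. The study used Rosetta Resolver, which was not repeated; its ratio limits were kept.

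"At least N-fold" sets the bright group's mean against, on each dim array, whichever is higher, the probe's signal or the dimmest signal of any probe that cleared background. The brightest tested probe stands for a gene. All members, the 3 most correlated genes of each, and of each list up to 6 called genes with the largest fold plus the genes that signal directly from a member were named; *Tyk2*, *Tlr7*, *Adarb1*, *Mlkl*, *Tank* and *Ifnb1* were added after their values were seen. Another 2 genes were left out of the lists and are not reported here. Members and lists were chosen with earlier results of these data known. Replicates were isolated on different days. Among slides 1 to 3, deviations from group means correlated at 0.308 to 0.613 in the 18 same-number pairs and at −0.510 to 0.0954 in the other 36, so there the number pairs the arrays. The number of arrays limits the precision.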

Additional observations from a re-analysis of the deposited data

Results flagged for a closer look

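No group had enough arrays for a test of outlying samples. The member probes left out of the tests showed signal on single arrays. The dimmer *Ifih1* probe was well above background on 3 arrays, wild type 3 h replicates 1 and 2 (log2 −4.23 and −4.06) and wild type 0 h replicate 2 (−3.92), and on no KTR, K314/315R or pTV array. The dimmer *Dhx58* probe was well above background on 1 array, wild type 0 h replicate 3 (−4.02).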

How the results depend on the processing

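Of the recomputed counts of called member probes, 183 stayed within 1.5 times the reported count. For KTR over wild type, where 0 were called, there were 3 without the filter on dim probes (*Dhx58*, *Zbp1* and the dimmer *Ifih1* probe), 2 with the replicate block, 2 with the slide as a random block, 2 at the unadjusted p, and 0 to 1 when single arrays were left out. Without the filter on dim probes, 150 of all 41174 probes were lower and 1252 higher for KTR over wild type. For KTR over K314/315R the unadjusted p gave 2. With normexp, 5 probes were called for KTR and 4 for K314/315R over pTV, against 9 each. The replicate block gave 1 for K314/315R over wild type (a dim *Ddx58* probe, log2 −0.87, adjusted p = 0.0190), where 520 of all probes were lower by that rule; the K314/315R numbers share only a number with the others (same-number pairs −0.101 to 0.411), and apart from KTR over wild type the block changed no other count of member calls. The causes were not tested.

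Of the recomputed fold changes, 1750 kept direction and call, and 26 changed sign, none of them of a called value. *Eif2ak2* was at 0.12 with normexp for KTR over wild type (−0.38 to 0.044 without single arrays) and at 0.068 for K314/315R over wild type (−0.45 to 0.13). For TNFα it was at −0.13 with normexp (−0.11 to 0.32), and for KTR over K314/315R at 0.052 with normexp, 0.028 with quantile normalization and 0.16 with the replicate block (−0.30 to 0.29). The other sign changes came without single arrays. There *Ifih1* ran from −0.72 to 0.11 for K314/315R over wild type and from −0.70 to 0.13 for KTR over K314/315R, where the brighter *Adar* probe ran from −0.0505 to 0.29. For TNFα, *Dhx58* ran from −0.29 to 0.15, the dimmer *Adar* probe from −0.24 to 0.13 and *Zbp1* from −0.084 to 0.56. *Ripk3* for wild type over pTV ran from −0.10 to 0.16. Of the 24 calls of single genes that were lost, 14 were lost with normexp.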
